A study of Canis lupus familiaris with 12 samples.

Results

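Glycosyltransferases of the Golgi apparatus, the enzymes that build and cap the sugar chains of secreted and membrane glycoproteins, proteoglycans and glycolipids, were examined in dog kidney cells grown in 2 geometries. The members were all probe sets (groups of oligonucleotides that measure 1 transcript) annotated with a single gene symbol of the families B3GNT, B3GALT, B4GALT, GALNT, GCNT, MGAT, ST3GAL, ST6GAL (ST6GALNAC included), ST8SIA and FUT, together with A4GALT, A4GNT, UGCG and C1GALT1. This gave 109 of 42924 probe sets and 79 of 15115 genes. A gene was represented by its probe set with the highest mean over all arrays. The choice rests on gene names alone. That enzymes of these families reside in the Golgi is general knowledge, which was not checked for each member and which expression arrays do not test.

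The cells were MDCK II tet-off, a dog kidney line with the character of tubule epithelium, kept under G418, and the labels name no gene placed under tetracycline control. They were cultured in type I collagen either as flat sheets (2D, 6 arrays, the control condition) or as multicellular cysts (3D, 6 arrays), and both groups were released from the gel with collagenase on day 8. Each one-colour Affymetrix array received RNA pooled from 4 samples, so the spread between arrays is that between pools, and it leaves out the spread between single cultures. In the labels they are biological replicates, with no word on how the pools were drawn.

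All 7 measured epithelial markers, among them EPCAM and the kidney cadherin CDH16, lay above background on every array. Their summed intensity was 26779 to 30397 in 2D and 31863 to 33941 in 3D. The summed level of 7 fibroblast markers was 403 to 474 in 2D and 375 to 420 in 3D, that of 5 endothelial markers 386 to 429 and 349 to 390, that of 5 leukocyte markers 496 to 544 and 475 to 546, and that of 4 smooth muscle markers 474 to 521 and 426 to 474. Of these markers of other cells, 2, 3, 5 and 3 lay above background on all 12 arrays, and their part in the results was not tested. Fewer cells of a kind and less RNA per cell cannot be told apart in such bulk samples.

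Protein-linked sugar chains are made in a set order. O-glycans of the mucin type start when a GALNT enzyme puts N-acetylgalactosamine on serine or threonine, and C1GALT1 and the GCNT enzymes then make the core and its branch. N-glycans arrive from the endoplasmic reticulum, are trimmed by mannosidases and are branched by the MGAT enzymes. B4GALT, B3GNT and B3GALT enzymes lengthen the antennae, and sialyltransferases and fucosyltransferases cap them. UGCG opens the parallel route to glycolipids. In polarised kidney epithelium such chains form the apical glycocalyx and take part in apical sorting, and MDCK cells are a standard host for influenza virus, which binds their sialic acids.

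In 3D, 21 of the 79 genes rose, 19 fell and 39 did not pass the test. Each gene was tested with limma on log2(intensity + 1), and a call means an adjusted p under 0.05 after Benjamini-Hochberg adjustment over all 42924 probe sets. In probe sets the counts were 30 and 24 of 109, against 16.7% and 22.0% of all probe sets. Over all genes, 19.8% rose and 22.9% fell, against 26.6% and 24.1% of the glycosyltransferases. At an unadjusted p under 0.05 the counts were 23 and 22 (29.1% and 27.8%, against 22.2% and 29.7% of all genes). The median log2 change of the 79 genes was -0.03, against -0.05 over all genes. With quantile normalization 22 rose and 13 fell (27.8% and 16.5%, against 17.4% and 22.4% of all genes). Among the 41 members with a log2 value above 6 on at least 6 arrays, 18 rose and 10 fell. These are 43.9% and 24.4%, against 26.3% and 24.7% of all genes kept by that filter, which 1 group alone can meet. With median centring 27.8% rose and 21.5% fell, against 21.2% and 17.7% of all genes. With the RNA quality ratio described below as a covariate 15.2% rose and 11.4% fell, against 12.6% and 8.33% of all genes.

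The changes were small. The raised genes had a median log2 change of 0.49 and the lowered ones of -0.25, against 0.35 and -0.23 among all raised and lowered genes. Measured changes ran from -0.59 for GALNT11 to 0.94 for ST6GAL1 and 0.99 for MGAT4C, which lay at background on all 2D arrays, so that its change has only a lower bound. In measured values 0 of the 79 genes were called with a change of 2-fold or more, against 2.12% of all genes. The 6 and 6 values did not overlap for 16 genes that were higher in 3D and 7 that were lower, against 13.2% and 9.49% of all genes. The plot of the change of every member shows raised and lowered genes within each enzyme step, and the proteoglycan linker, with only 2 genes, held 1 of each.

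**Figure D1:**
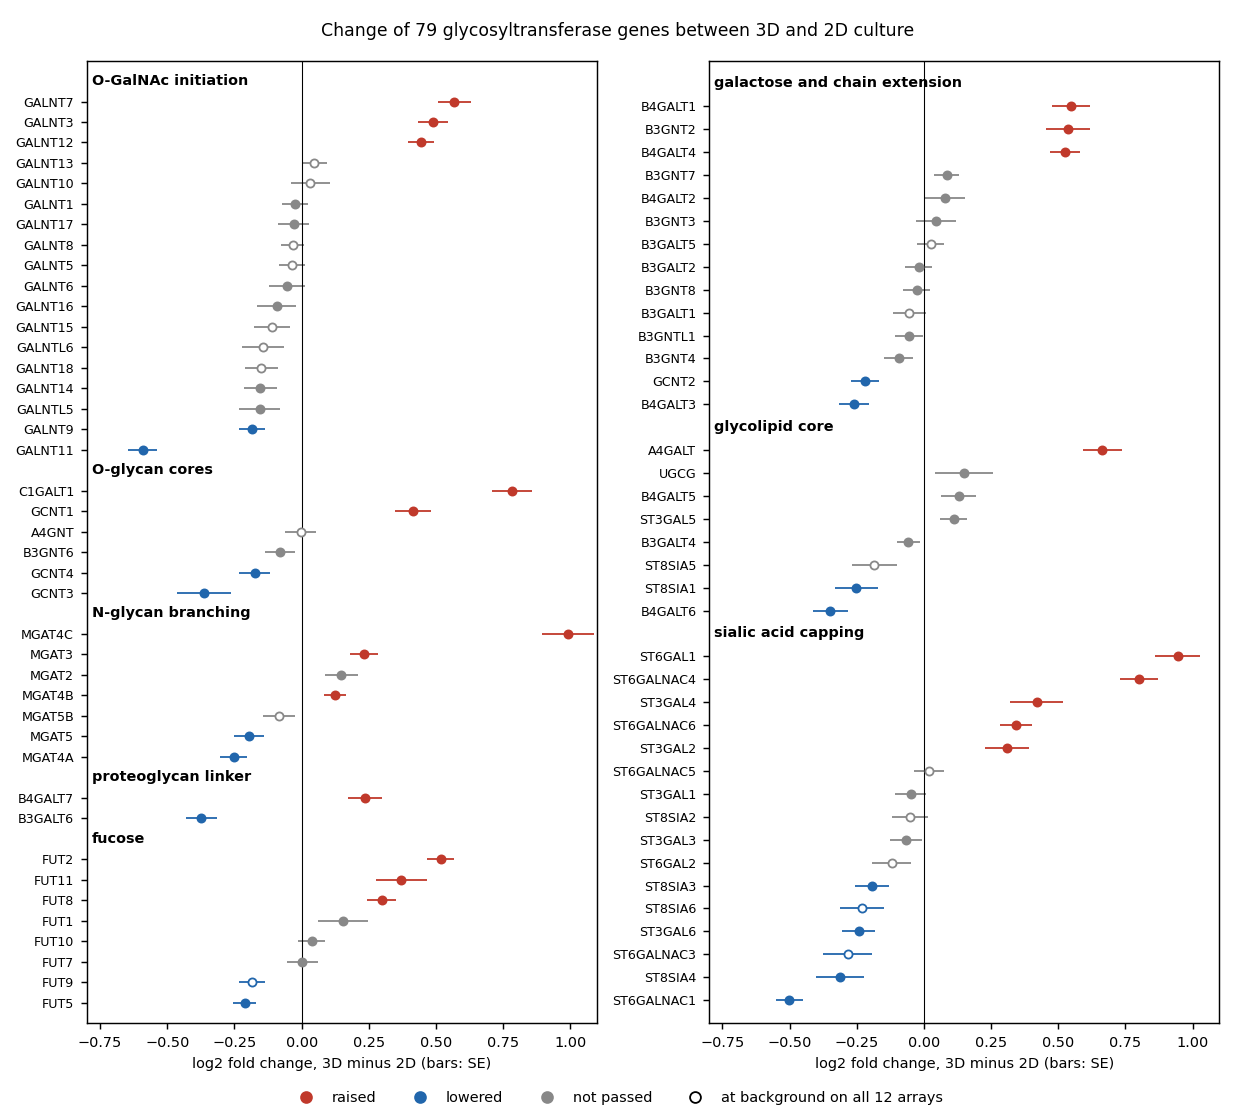
Log2 change (3D minus 2D, horizontal axis) of the 79 genes by enzyme step; bars are standard errors, n = 6 arrays per group, and open circles mark genes at background on all 12 arrays. Measured changes run from -0.59 (GALNT11) to 0.99 (MGAT4C, at background in 2D and so not an exact change), and genes that rose and genes that fell occur in every step.

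Background was read from 59 controls on the array, whose bacterial and tag sequences match no dog gene. A value at or below their 95th percentile on the same array (5.71 on the log2 scale on average, 5.59 to 5.91) was taken as background. Of the 79 genes, 45 lay above it on all 12 arrays and 18 lay at or below it on all 12. Of those 18, FUT9, ST6GALNAC3 and ST8SIA6 were called lower and 0 higher, while of 1698 such genes on the whole array 281 were called lower and 19 higher. These 3 calls are differences among values at background.

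A sign of RNA quality moved with culture. It is the signal at the 5-prime end of actin and GAPDH over that at the 3-prime end, here called the control ratio. On the log2 scale it averaged -0.92 ± 0.14 for the 2D arrays and -0.54 ± 0.17 for the 3D arrays (SD, n = 6 each, exact two-sided permutation p = 0.00866). The difference was 0.59 from actin alone and 0.15 from GAPDH alone. The control ratio of 3D replicate 2, at -0.88, lay among the 2D values of -1.09 to -0.75, and the other 3D arrays lay between -0.55 and -0.40. Allowing for this ratio as a covariate, 12 of the 21 genes that rose and 9 of the 19 that fell kept their call. In that fit 15.2% and 11.4% of the 79 genes were called higher and lower, against 12.6% and 8.33% of all genes. Since the ratio itself differed between the cultures, this fit can hardly tell the 2 apart, and the culture term becomes less precise. A call could end with the log2 change nearly kept (ST3GAL4, 0.42 and 0.41) or with it gone (FUT11, 0.37 and -0.0085). The part of the ratio in the changes was not tested beyond this fit, and the values that moved with it are given with each enzyme.

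Of the 18 genes of the GALNT family, which is known for initiating O-glycans, 3 rose, 2 fell and 13 did not pass the test. The shares were 16.7% and 11.1%, against 19.8% and 22.9% of all genes. The median log2 change was -0.04. GALNT7, which prefers peptides that already carry N-acetylgalactosamine, had log2 values of 9.74 to 10.00 in 2D (median 9.79) and of 10.30 to 10.52 in 3D (median 10.41). All 3D arrays lay above all 2D arrays, and the gene rose 1.48-fold (log2 change 0.57, SE 0.06, limma's adjusted p = 1.78e-06). GALNT3, which protects the phosphate hormone FGF23 from cleavage, rose by 0.49 (SE 0.06, limma's adjusted p = 4.33e-06), and GALNT12 by 0.44 (SE 0.05, limma's adjusted p = 2.98e-06), also without overlap. The second probe set of each of these 3 genes rose too, by 0.61 for GALNT7, 0.83 for GALNT3 and 0.46 for GALNT12.

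GALNT11, which glycosylates the linkers of the endocytic receptor megalin in kidney tubule, went the other way. It read 10.12 to 10.42 in 2D (median 10.28) and 9.61 to 9.75 in 3D (median 9.68). Every 3D array was below every 2D array, and the gene was 1.51-fold lower (log2 change -0.59, SE 0.05, limma's adjusted p = 2.69e-07). GALNT9, an initiating enzyme described in brain, fell by 0.19 (SE 0.05, limma's adjusted p = 0.00768), with overlap between the groups. That call ended with quantile normalization (-0.12, limma's adjusted p = 0.0839).

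The widely expressed initiating enzyme GALNT1 did not pass. It read 10.99 to 11.15 in 2D (median 11.04) and 10.96 to 11.15 in 3D (median 11.01), so the ranges overlapped almost wholly (log2 change -0.02, SE 0.05, limma's adjusted p = 0.705). The other 12 GALNT genes without a call, GALNT6, GALNT14, GALNT16, GALNT17 and GALNTL5 among them, had log2 changes between -0.16 (GALNTL5) and 0.05 (GALNT13), and 7 of them, GALNT5, GALNT8, GALNT10, GALNT13, GALNT15, GALNT18 and GALNTL6, lay at background on all 12 arrays. GALNTL5 passed with the mean of its probe sets (-0.16, limma's adjusted p = 0.0287), and its other probe set, at background, was called lower (0.0463). GALNT14 (-0.15, limma's adjusted p = 0.0601) passed with array weights (0.0402) and without 2D replicate 4, 3D replicate 2 or 3D replicate 5 (0.0253 to 0.0329). It also passed without 2D replicate 6 and 3D replicate 2 together (0.0443) and with the replicate number as a block (0.0452). Among the genes at background GALNT15 passed without 3D replicate 2 (limma's adjusted p = 0.0457), and GALNTL6 with array weights (0.0335) or without 2D replicate 1 (0.0234). GALNT18 passed with array weights, with the replicate number as a block (0.0412), or when genes were tested as the mean of their probe sets. It also passed without 2D replicate 3, 3D replicate 1 or 3D replicate 2 (0.0320 to 0.0497 over all these fits).

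Among the enzymes of the O-glycan core, C1GALT1 and GCNT1 rose and GCNT3 and GCNT4 fell, and B3GNT6 and A4GNT did not pass. With only 6 genes the shares were 33.3% each, against 19.8% and 22.9% of all genes. C1GALT1, the T-synthase that adds galactose to the first sugar, read 8.85 to 9.30 in 2D (median 9.11) and 9.75 to 10.01 in 3D (median 9.91). The groups did not overlap, and the gene rose 1.72-fold (log2 change 0.78, SE 0.08, limma's adjusted p = 5.85e-07). GCNT1, which builds the branched second core on that product, read 5.58 to 5.77 in 2D, above background on 2 of 6 arrays, and 5.97 to 6.35 in 3D, above it on all 6 (log2 change 0.42, SE 0.07, limma's adjusted p = 0.000125).

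GCNT3, the core-branching enzyme of mucin-secreting epithelium, read 6.70 to 7.03 in 2D (median 6.73) and 6.06 to 6.81 in 3D (median 6.44). The ranges overlapped (log2 change -0.36, SE 0.10, limma's adjusted p = 0.00921), and the call ended allowing for the control ratio (-0.17, limma's adjusted p = 0.513). GCNT4 fell by 0.18 (SE 0.06, limma's adjusted p = 0.0257). It lost its call with centring on the median (limma's adjusted p = 0.0567), quantile normalization (0.121), allowance for the control ratio (0.726) and when 2D replicate 3, 2D replicate 5, 3D replicate 1 or 3D replicate 6 was left out (0.0545 to 0.0624). B3GNT6, which makes the alternative core without galactose, had a log2 change of -0.08 (SE 0.06, limma's adjusted p = 0.274). A4GNT, which caps gastric mucins, lay at background on every array.

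Of the 7 MGAT genes of N-glycan branching 3 rose, 2 fell and 2 did not pass. The shares were 42.9% and 28.6%, against 19.8% and 22.9% of all genes. MGAT4C, a relative of the MGAT4 branching enzymes, read 4.96 to 5.27 in 2D, at background on all 6 arrays, and 5.66 to 6.34 in 3D, above it on 5 of 6. It was at least 1.26-fold higher in 3D, taking background as the 2D level (measured log2 change 0.99, SE 0.10, limma's adjusted p = 5.74e-07). MGAT3, which adds the bisecting residue that stops further branching, read 5.55 to 5.79 in 2D, above background on 2 of 6 arrays. In 3D it read 5.81 to 6.01, above background on all 6, and rose by 0.23 (SE 0.05, limma's adjusted p = 0.00239). MGAT4B, which adds a further antenna, read 12.27 to 12.40 in 2D (median 12.36) and 12.44 to 12.51 in 3D (median 12.46). The groups did not overlap, although the difference was only 0.12 (SE 0.04, limma's adjusted p = 0.0251).

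Its close relative MGAT4A fell by 0.25 (SE 0.05, limma's adjusted p = 0.00117). MGAT5, whose branch carries long lactosamine chains bound by galectins, fell by 0.20 (SE 0.06, limma's adjusted p = 0.0133). MGAT2, which starts the second antenna, had a log2 change of 0.15 (SE 0.06, limma's adjusted p = 0.0670), and MGAT5B lay at background. Allowing for the control ratio, MGAT3 (0.19, limma's adjusted p = 0.140), MGAT4B (0.13, limma's adjusted p = 0.201) and MGAT5 (-0.10, limma's adjusted p = 0.499) lost their calls. MGAT5 also lost it with quantile normalization (limma's adjusted p = 0.0625), MGAT4B without 2D replicate 2, 3D replicate 3 or 3D replicate 4 (limma's adjusted p = 0.0501 to 0.0581) and without 2D replicate 6 and 3D replicate 2 together (0.0557), while MGAT2 passed with median centring, a trended robust prior or array weights, and without 2D replicate 5, 2D replicate 6, 3D replicate 2 or the last 2 together (0.0235 to 0.0480).

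The galactosyltransferases and N-acetylglucosaminyltransferases that lengthen antennae had 3 raised and 2 lowered genes among 14 (21.4% and 14.3%, against 19.8% and 22.9% of all genes). B4GALT1, the main enzyme that completes lactosamine, read 8.44 to 8.70 in 2D (median 8.50) and 8.84 to 9.26 in 3D (median 9.11), a rise of 1.46-fold without overlap (log2 change 0.55, SE 0.07, limma's adjusted p = 1.46e-05). Its log2 change was 0.31 allowing for the control ratio (limma's adjusted p = 0.0199). Its second probe set differed by 0.55 as well but did not pass (limma's adjusted p = 0.0523). B4GALT4, which galactosylates sulfated N-acetylglucosamine, rose by 0.53 (SE 0.06, limma's adjusted p = 1.72e-06), and its second probe set by 0.67.

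B3GNT2, the main polylactosamine synthase, read 9.41 to 9.53 in 2D (median 9.51). In 3D 5 arrays lay between 10.02 and 10.17, and 3D replicate 2 lay at 9.59, just above the 2D arrays. The gene rose 1.45-fold (log2 change 0.54, SE 0.08, limma's adjusted p = 8.37e-05), and the call ended allowing for the control ratio (0.26, limma's adjusted p = 0.0898).

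B4GALT3 fell and is another enzyme that completes lactosamine. It read 9.37 to 9.66 in 2D (median 9.49) and 9.15 to 9.32 in 3D (median 9.26), without overlap (log2 change -0.26, SE 0.06, limma's adjusted p = 0.00163). GCNT2, which branches polylactosamine into the I antigen, fell by 0.22 (SE 0.05, limma's adjusted p = 0.00354), from values above background on 5 of 6 arrays in 2D to 2 of 6 in 3D, and had -0.25 without a call allowing for the control ratio (limma's adjusted p = 0.0528). The 9 genes without a call, which include B3GNT3, B3GNT8, B3GNTL1, B3GALT1, B3GALT2, B3GALT5 and B4GALT2, had log2 changes from -0.09 (B3GNT4) to 0.08 (B3GNT7). B3GNT4 is uncertain, since 1 of its 3 probe sets, at background on all 2D arrays, was called higher (at least 1.21-fold, limma's adjusted p = 5.32e-06). B3GNT7 passed with quantile normalization (0.16, limma's adjusted p = 0.0147).

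The enzymes that add both galactoses of the proteoglycan linker moved in opposite directions. B3GALT6, which adds the second, read 8.54 to 8.84 in 2D (median 8.75) and 8.26 to 8.50 in 3D (median 8.35), and was 1.29-fold lower without overlap (log2 change -0.37, SE 0.06, limma's adjusted p = 0.000124). Its other probe set did not pass (-0.02, limma's adjusted p = 0.771), and with the mean of both the log2 change was -0.20 (limma's adjusted p = 0.00255). B4GALT7, which adds the first, rose by 0.24 (SE 0.06, limma's adjusted p = 0.00730), with 1 of 3 probe sets not passing (-0.06). That call ended with quantile normalization (0.13, limma's adjusted p = 0.0537) and allowing for the control ratio (0.26, limma's adjusted p = 0.0952).

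Among 8 glycolipid enzymes A4GALT rose and B4GALT6 and ST8SIA1 fell (12.5% and 25%, against 19.8% and 22.9% of all genes). A4GALT, the synthase of globotriaosylceramide, the receptor of Shiga toxin, read 6.58 to 6.93 in 2D (median 6.76) and 7.19 to 7.60 in 3D (median 7.46). All 3D arrays lay above all 2D arrays, a 1.59-fold rise (log2 change 0.66, SE 0.07, limma's adjusted p = 2.21e-06). B4GALT6, a lactosylceramide synthase, read 7.06 to 7.36 in 2D (median 7.27) and from 6.68 up to 6.996 in 3D (median 6.91), again without overlap (log2 change -0.35, SE 0.07, limma's adjusted p = 0.000561). Its second probe set fell by 0.49, and allowing for the control ratio the log2 change was -0.53 (limma's adjusted p = 0.000551).

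UGCG, the glucosylceramide synthase that opens the route, read 9.51 to 9.91 in 2D (median 9.58) and 9.41 to 10.08 in 3D (median 9.82). The 3D arrays spread on both sides of the 2D arrays (log2 change 0.15, SE 0.11, limma's adjusted p = 0.289). ST8SIA1, the synthase of ganglioside GD3, fell by 0.25 (SE 0.08, limma's adjusted p = 0.0224). This call ended allowing for the control ratio (-0.06, limma's adjusted p = 0.783), with the mean of its probe sets (-0.08, limma's adjusted p = 0.202), with quantile normalization (limma's adjusted p = 0.0666) and without 2D replicate 1, 3D replicate 4 or 3D replicate 6 (limma's adjusted p = 0.0513 to 0.0544). ST3GAL5, the GM3 synthase, had a log2 change of 0.11 (SE 0.05, limma's adjusted p = 0.0962), and 1 of its 3 probe sets rose by 0.22. It passed with the mean of its probe sets (0.13, limma's adjusted p = 0.0287) and without 2D replicate 1 (0.14, limma's adjusted p = 0.0418). B4GALT5, the other lactosylceramide synthase, lay above background on 0 of 6 arrays in 2D and 1 of 6 in 3D. It had 0.13 (limma's adjusted p = 0.126) and passed with quantile normalization (0.20, limma's adjusted p = 0.0302). B3GALT4, the GM1 synthase, had -0.06 (limma's adjusted p = 0.314), and ST8SIA5 lay at background (-0.18, limma's adjusted p = 0.0879, or 0.0475 without 3D replicate 2).

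Sialic acid capping had 5 raised and 6 lowered of 16 genes (31.2% and 37.5%, against 19.8% and 22.9% of all genes). Of the 6 lowered, ST6GALNAC3 and ST8SIA6 lay at background on every array. ST8SIA3 and ST8SIA4 each lay above it on 1 array in 2D and 0 in 3D. The lowered genes above background on every array were ST3GAL6 and ST6GALNAC1. ST6GAL1, which sialylates the antennae of N-glycans and makes the receptor form preferred by human influenza viruses, read 7.06 to 7.41 in 2D (median 7.22) and 7.89 to 8.36 in 3D (median 8.18). The gap between the groups was wider than either range, and the gene rose 1.92-fold (log2 change 0.94, SE 0.08, limma's adjusted p = 1.96e-07). Allowing for the control ratio, the log2 change was 0.62 (limma's adjusted p = 0.000110).

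ST6GALNAC4, which adds the second sialic acid to the sialylated first O-glycan core, read 8.10 to 8.64 in 2D (median 8.27) and 9.03 to 9.18 in 3D (median 9.12). It rose 1.74-fold without overlap (log2 change 0.80, SE 0.07, limma's adjusted p = 2.11e-07). ST6GALNAC1, which caps the first sugar and so makes the sialyl-Tn antigen, fell. It read 10.76 to 10.98 in 2D (median 10.82) and 10.26 to 10.42 in 3D (median 10.34), again without overlap (log2 change -0.50, SE 0.05, limma's adjusted p = 9.80e-07). Of its other probe sets 1 fell by 0.47 and 1 did not pass (-0.14), and the annotation gives these probe sets 2 gene identifiers under 1 symbol.

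The enzymes that sialylate galactose as ST3GAL products went both ways. ST3GAL6, which caps lactosamine, read 11.25 to 11.60 in 2D (median 11.53) and 11.09 to 11.30 in 3D (median 11.24). The ranges overlapped slightly, and the gene fell by 0.24 (SE 0.06, limma's adjusted p = 0.00633), or by 0.41 allowing for the control ratio (limma's adjusted p = 0.00341). Its second probe set fell by 0.22. ST3GAL4, which also caps lactosamine, rose by 0.42 (SE 0.10, limma's adjusted p = 0.00347), or by 0.25 with the mean of its probe sets, and ST3GAL2, which sialylates O-glycans and gangliosides, rose by 0.31 (SE 0.08, limma's adjusted p = 0.00814). ST3GAL1, the main sialyltransferase of the first O-glycan core, had a log2 change of -0.05 (SE 0.06, limma's adjusted p = 0.513), while its other probe set, at background in 2D, rose by 0.14. ST3GAL3 had -0.07 (limma's adjusted p = 0.393), and ST6GAL2, ST6GALNAC5 and ST8SIA2 lay at background on all arrays. ST6GALNAC6, a ganglioside sialyltransferase, rose by 0.34 (SE 0.06, limma's adjusted p = 0.000249).

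The ST8SIA enzymes, which join sialic acids to one another, had 0 raised and 4 lowered of 6 genes, counting ST8SIA1 above. Over all genes 19.8% rose and 22.9% fell. By limma at an unadjusted p under 0.05 the counts were 0 and 5, against 22.2% and 29.7% of all genes. ST8SIA4, a polysialyltransferase of the neural adhesion molecule, fell by 0.31 (limma's adjusted p = 0.0122), ST8SIA6 by 0.23 (limma's adjusted p = 0.0369) and ST8SIA3 by 0.19 (limma's adjusted p = 0.0228). Each was above background on at most 1 array of either group, as was ST6GALNAC3, which fell by 0.28 (limma's adjusted p = 0.0236), so no fold is given. Allowing for the control ratio, ST3GAL2 (0.22), ST3GAL4 (0.41), ST6GALNAC6 (0.14), ST6GALNAC3 (-0.12), ST8SIA3 (-0.18), ST8SIA4 (-0.29) and ST8SIA6 (-0.19) lost their calls (limma's adjusted p = 0.104 to 0.628). ST8SIA3 and ST8SIA6 also lost theirs with quantile normalization (limma's adjusted p = 0.121 and 0.0994) and without 2D replicate 1 (0.0526 and 0.0841), as did ST6GALNAC3 without that array (0.0554). With median centring (0.0514) and without 2D replicate 6 or 3D replicate 1, 3, 4 or 5 ST8SIA6 did not pass (limma's adjusted p = 0.0609 to 0.0744), nor ST6GALNAC3 without 3D replicate 1 or 4 (0.0516 and 0.0604) or ST8SIA3 without 3D replicate 3 (0.0548).

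Of 8 fucosyltransferases 3 rose, 2 fell and 3 did not pass. The shares were 37.5% and 25%, against 19.8% and 22.9% of all genes. FUT2, which makes the secreted H antigen of the blood group system, read 6.85 to 6.99 in 2D and 7.38 to 7.62 in 3D, and rose by 0.52 without overlap (SE 0.05, limma's adjusted p = 5.81e-07). FUT8, which adds the core fucose of N-glycans, read 8.88 to 9.16 in 2D (median 8.99) and 9.15 to 9.39 in 3D (median 9.31). The ranges overlapped slightly, and it rose by 0.30 (SE 0.05, limma's adjusted p = 0.000450). FUT11 rose by 0.37 (SE 0.09, limma's adjusted p = 0.00562), with 3D values from 6.63 to 7.29 that overlapped the 2D values of 6.47 to 6.85. Allowing for the control ratio, FUT8 (0.12, limma's adjusted p = 0.264) and FUT11 (-0.0085, limma's adjusted p = 0.966) lost their calls.

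FUT5, of the Lewis fucosyltransferase group, read 5.94 to 6.10 in 2D (median 5.99) and 5.75 to 5.84 in 3D (median 5.79). It fell by 0.21 without overlap (SE 0.04, limma's adjusted p = 0.00121). FUT9, the Lewis x synthase, also fell without overlap, from 4.93 to 5.16 in 2D (median 5.02) to 4.77 to 4.93 in 3D (median 4.84), all at background, and lost its call allowing for the control ratio (-0.19, limma's adjusted p = 0.119). FUT1, which makes the H antigen of red cells, had a log2 change of 0.16 (SE 0.09, limma's adjusted p = 0.195), but passed with array weights (0.24, limma's adjusted p = 0.0201) and without 3D replicate 2 (0.24, limma's adjusted p = 0.0162). It also passed without 3D replicate 2 and 2D replicate 6 together (0.26, limma's adjusted p = 0.00884). FUT7, the sialyl Lewis x synthase, had 0.0029 (limma's adjusted p = 0.972) and FUT10 0.04 (limma's adjusted p = 0.562).

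**Figure D2:**
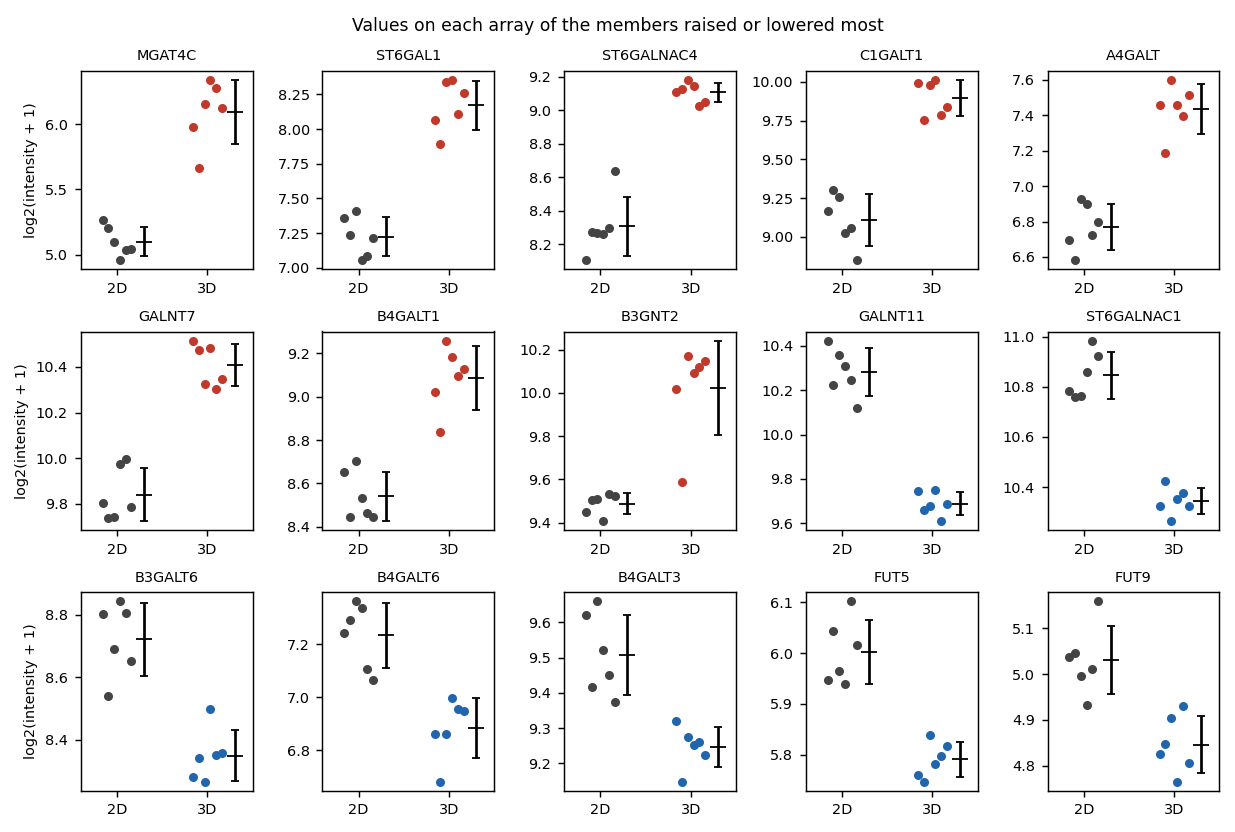
Log2(intensity + 1) on each array (points) with group mean and SD (bars) for the 8 raised and 7 lowered members of largest change whose groups did not overlap, n = 6 arrays per group; vertical axes differ between panels and do not start at 0. In the panel of B3GNT2, 3D replicate 2 lies at 9.59 and the other 3D arrays lie between 10.02 and 10.17.

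The arrays of the 3D group were not alike in the raised members. Of its group 3D replicate 2 had the lowest value for 12 of the 21 genes that rose and the highest for 8 of the 19 that fell. Conversely 3D replicates 3 and 4 were each the highest of their group for 8 of the 21 raised genes and never the lowest. Replicate 2 of 3D was also the lowest for 4 of the 19 that fell. The same counts were not made for all genes, so they are not shown to be particular to these enzymes. In principal components (axes that summarise the variation between arrays) 3D replicate 2 also stood apart from its group. It scored 21.8 on the first, and the other 3D arrays 32.1 to 39.2. On the second it scored -27.8, and the other 3D arrays -2.46 or higher. The control ratio of 3D replicate 2 is given above, and the part of that ratio was not tested. Without 3D replicate 2, 23 members rose and 23 fell (29.1% each, against 21.2% and 26.1% of all genes). Without it and 2D replicate 6 the counts were 22 and 20 (27.8% and 25.3%, against 20.7% and 25.6% of all genes). The plot of fold changes from both fits shows by how much each call moved when the control ratio was allowed for.

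**Figure D3:**
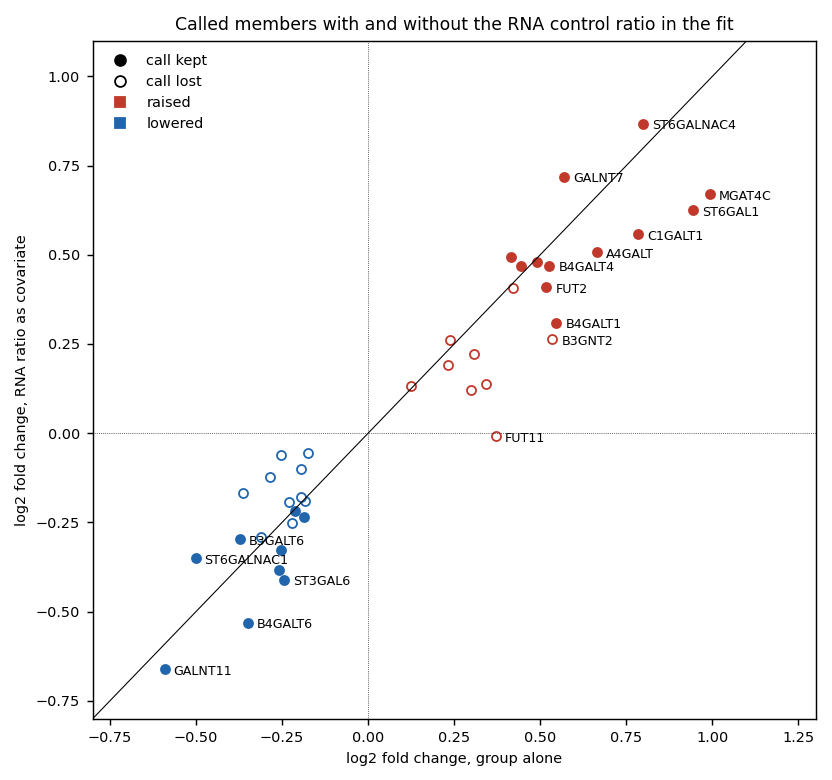
Log2 change of the 40 called members with the culture as the only term (horizontal axis) and with the control ratio added (vertical axis); filled circles kept their call, open ones lost it, and the line marks equal values. ST6GALNAC4 and GALNT7 lie above the line at 0.87 and 0.72, while FUT11 falls to -0.0085.

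Of 24 genes with several probe sets, 0 had a raised and a lowered probe set called by limma (0 also at an unadjusted p under 0.05), 8 had every probe set called in the same direction, 11 had some called and some not, and 5 had none called. The 8 were GALNT3, GALNT7, GALNT12 and B4GALT4, ST6GALNAC6, B4GALT6, ST3GAL6 and ST8SIA3. Of the 79 genes, 19 were represented by a probe set with the suffix _s_at or _x_at, which can hybridise with related transcripts. Of these 9 were called (MGAT4A, MGAT4B, B3GNT2, ST3GAL4, ST6GALNAC4, ST6GALNAC6, FUT5, FUT8 and FUT9). Whether these 9 also measure other transcripts, such as those of family members, was not tested. Calls in either direction made up 42.7% of all genes. The same counts were not made for all genes with several probe sets or with that suffix.

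The rest of the glycosylation pathway was described through 8 lists with 170 measured genes, of which 46 rose and 37 fell. Over all genes 19.8% rose and 22.9% fell. Nucleotide sugar supply had 12 raised and 6 lowered of 28 genes, with a median log2 change of 0.11. UGP2, which makes UDP-glucose, rose by 0.54, GALT of galactose use by 0.46, MPI, which makes mannose phosphate, by 0.45 and GNPNAT1 of the UDP-GlcNAc route by 0.45 (limma's adjusted p = 6.51e-07 to 0.000209). Assembly and transfer of N-glycans in the endoplasmic reticulum had 4 raised and 9 lowered of 29, with a median of -0.04. ALG13 and ALG14, which together add the second N-acetylglucosamine, fell by 0.53 and 0.34, the oligosaccharyltransferase subunit KRTCAP2 fell by 0.50, and its subunit OSTC rose by 0.33.

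Mannose trimming, which prepares N-glycans for the MGAT enzymes, had 6 raised and 2 lowered of 14, with a median of 0.16. MAN1A1, a Golgi mannosidase, rose by 1.20 (SE 0.05, limma's adjusted p = 1.05e-10), from 8.17 to 9.36 in the group means, and MAN2A1, which acts after MGAT1, by 0.56. MAN1C1, a relative of MAN1A1, fell by 0.62, and UGGT2, a folding sensor, rose by 0.64. Glycosaminoglycan synthesis had 8 raised and 5 lowered of 30, with a median of -0.0018. DSE, which epimerises dermatan sulfate, rose by 1.11 (SE 0.07, limma's adjusted p = 5.68e-09), the chondroitin enzymes CHSY1 and CHST11 by 0.68 and 0.66, and HS3ST1, a heparan sulfotransferase, by 0.62.

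Other glycosyltransferases had 4 raised and 4 lowered of 22, with a median of -0.01. B4GALNT4 fell by 0.79 (SE 0.06, limma's adjusted p = 8.54e-08), B3GLCT of O-fucose chains by 0.39 and POMGNT2 of O-mannose chains by 0.31, while GGTA1, the alpha-galactosyltransferase of the xenoantigen, rose by 0.61. Golgi structure and ion genes had 4 raised and 5 lowered of 26, with a median of 0.02. GOLM1 rose by 0.77, GOLGA5 by 0.30 and the ion transporter TMEM165 by 0.29, and GOLGA1 fell by 0.31. GOLGA1 lay above background on 4 of 6 arrays in 2D and 1 of 6 in 3D. Sialidases and galectins had 4 raised and 2 lowered of 10, with a median of 0.08. LGALS3, the galectin that sorts apical glycoproteins, rose by 0.35, LGALS8 by 0.30 and LGALS4 by 0.28, and LGALS2 fell by 0.87 (SE 0.06, limma's adjusted p = 4.32e-09). Of the mucin-like carriers 4 rose and 4 fell of 11, with a median of -0.13. MUC16 rose by 1.81 (SE 0.08, limma's adjusted p = 4.28e-11), CD44 by 1.48, MUC20 by 0.31 and MUC1 by 0.22.

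Allowing for the control ratio, GALT (0.19), CHSY1 (0.40), GGTA1 (0.25), ALG14 (-0.26), POMGNT2 (-0.13), GOLGA1 (-0.17) and MUC20 (0.26) lost their calls (limma's adjusted p = 0.0552 to 0.387). GOLGA1 and LGALS4 lost theirs with the mean of their probe sets (-0.02 and 0.04). In that fit with the control ratio the raised genes went from 12 to 5 in nucleotide sugar supply, from 8 to 4 in glycosaminoglycan synthesis and from 4 to 2 among the other glycosyltransferases. The lowered genes went from 9 to 5 in assembly in the endoplasmic reticulum, from 5 to 2 in glycosaminoglycan synthesis and in Golgi structure, from 4 to 2 among the other glycosyltransferases, from 4 to 1 among the mucin-like carriers and from 2 to 1 among sialidases and galectins. Over all genes that fit took the raised from 19.8% to 12.6% and the lowered from 22.9% to 8.33%. Single arrays also moved the lowered counts. Over all genes the lowered share ran from 18.4% without 3D replicate 4 to 26.1% without 3D replicate 2. In glycosaminoglycan synthesis 2 fell without 3D replicate 1 or 3, and 3 without 2D replicate 1, 3D replicate 4 or 3D replicate 5. Of the mucin-like carriers 2 fell without 3D replicate 1 or 4, and of the trimming genes 1 without 3D replicate 1 or 3. Of the sialidases and galectins 1 fell without any of 2D replicates 1, 2, 3, 5 and 6 and 3D replicates 1, 3, 4, 5 and 6.

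**Figure D4:**
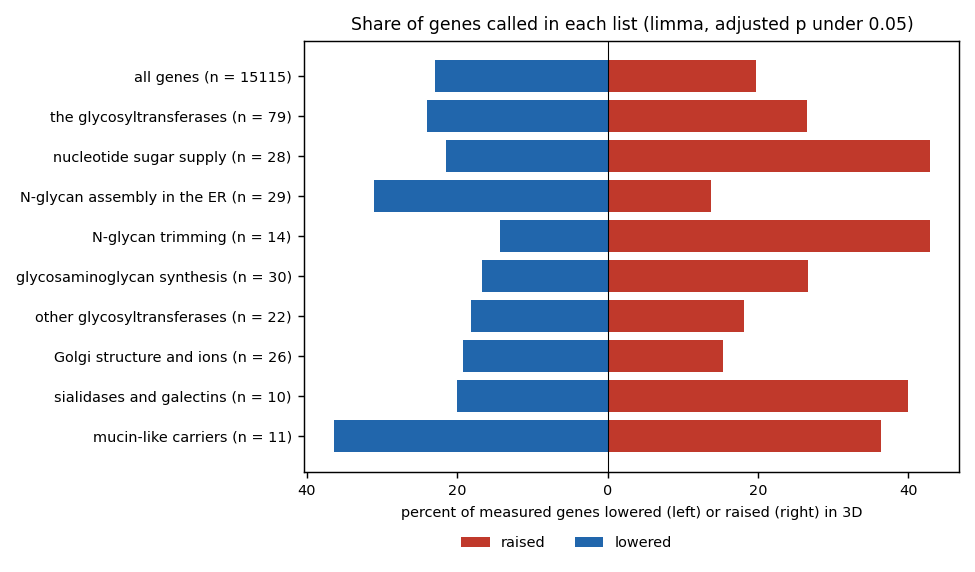
Percent of measured genes raised (right) or lowered (left) in 3D in the glycosyltransferases, in 8 other lists of the pathway and over all genes (limma, adjusted p under 0.05); n is the number of genes. The glycosyltransferases stand at 26.6% raised and 24.1% lowered, against 19.8% and 22.9% of all genes. N-glycan trimming and nucleotide sugar supply each have 42.9% raised. Allowing for the control ratio the latter had 5 of 28 genes raised, against 12.6% of all genes.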

How the data were processed

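Probe set intensities on a linear scale were deposited by the authors, 1 value for each of 43035 probe sets and 12 arrays, and GCRMA (background correction and summary) is named without a version in the submitters' processing notes. Not given in the sources used here: later scaling and probe set definitions. Values were used as log2(intensity + 1) without further normalization or filter, so fold changes understate those of dim genes, and precision is limited by how many arrays there are. The 111 control probe sets were left out. Symbols came from the platform annotation (29254 probe sets with 1 gene, 439 with several, left out, 13231 with none), and 105 of the 109 member probe sets were found in RefSeq (assembly UU_Cfam_GSD_1.0), with 0 symbols changed. No coordinates or sequences are given.

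Groups were compared with limma 3.58.1 in R 4.3.3 (lmFit, eBayes, culture as the only term, two-sided). Members, lists and alternatives were chosen with earlier results of these data known. Per-array values are given for up to 8 members raised and 8 lowered most among called genes without overlap (7 qualified), and for the member with the highest mean in each step, and of each list the 4 called genes of largest change are named. Alternatives were quantile normalization, median centring, a pseudocount of 16, the control ratio as a covariate, array weights, a trended robust prior, a filter on dim probe sets, a 2-fold minimum, the mean of a gene's probe sets, the replicate number as a block and leaving out arrays. The scripts were tested on simulated data.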

Additional observations from a re-analysis of the deposited data

Results flagged for a closer look

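A single array stood apart from the other 5 of its group, by Dixon's criterion, for 13 of 158 combinations of a member gene and a culture, or 8.23%, where chance flags about 1 in 20. The array was 3D replicate 2 in 5 of the 13. It was lowest of its group for B3GNT2 (9.59, next 10.02), ST6GALNAC6 (8.50, next 8.70) and FUT1 (6.89, next 7.30), and highest for B3GNTL1 (5.99, next 5.80) and MGAT5B (5.43, next 5.21). The control ratio of that array lay among the 2D values, and the part of the ratio in these values was not tested.

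In 2D, replicate 1 was highest for GCNT3 (7.03) and MGAT5B (5.50) and lowest for ST3GAL3 (6.12) and GALNT10 (5.04). Replicate 6 was highest for ST6GALNAC4 (8.64, next 8.30), still below every 3D array, and lowest for ST6GALNAC5 (4.78). FUT1 was lowest on replicate 3 (6.81) and A4GNT on replicate 4 (4.64). MGAT5B, GALNT10, ST6GALNAC5 and A4GNT lay at background on all arrays.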

How the results depend on the processing

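Of the 40 called members, 20 kept their call under every alternative in which they were fitted, apart from the 2-fold minimum. With a minimum change of 2-fold, 0 member genes and 0 member probe sets were called in either direction (limma's treat; at an unadjusted limma p under 0.05, 23 genes rose and 22 fell), and the other lists had 2 raised and 0 lowered. With the control ratio as a covariate 12 genes and 16 probe sets rose and 9 and 11 fell, against 21, 30, 19 and 24, and the other lists had 19 lowered. With the filter (a log2 value above 6 on at least 6 arrays), which kept 41 of 79 genes, 18 genes and 25 probe sets rose and 10 and 13 fell. Among called values the sign turned for FUT11 with the covariate (-0.0085) and for B3GNT4 with the mean of its probe sets (0.15), and the causes were not tested. With the covariate 13 further members changed sign without a call in either fit. Leaving out each array gave 20 to 23 raised and 16 to 23 lowered genes, 28 to 33 and 20 to 31 probe sets, and a difference in the control ratio of 0.34 to 0.44. Over all genes the same fits had 18.1% to 21.2% raised and 18.4% to 26.1% lowered. With the replicate number as a block 21 genes rose and 21 fell (31 and 26 probe sets). The numbers are not known to pair the arrays: deviations of same-numbered arrays correlated by 0.00084 to 0.36, and 4 of 6 2D arrays correlated best with their own number.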

Other observations

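Genes that supply sialic acid were looked at after their values were seen. CMAS, which activates sialic acid, rose by 0.32 (SE 0.04, limma adjusted p = 2.87e-05). SLC35A1, which carries the activated sugar into the Golgi, fell by 0.31 (SE 0.05, limma adjusted p = 0.000108), and GNE, which starts sialic acid synthesis, fell by 0.23 (SE 0.05, limma adjusted p = 0.000859). The synthase NANS had a log2 change of 0.04 and did not pass (limma's adjusted p = 0.559). GBGT1, the synthase of the Forssman glycolipid, rose by 0.25 (SE 0.05, limma adjusted p = 0.000497).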
